A study of Mus musculus with 4 samples.

Results

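The promoters that closed during differentiation in both genotypes are merged open chromatin regions that had an ATAC-seq peak in WT and HY cells at D0, had no peak in either genotype at D8, and touched a promoter window, which ran from 1000 bp before an annotated transcription start site (TSS) to 100 bp after it. Of 98469 merged regions on chromosomes 1 to 19, 17174 were promoter regions in this sense, 14044 of these had a peak in both D0 lists, and 1827 closed. The members were chosen by the presence of D0 peaks and the absence of D8 peaks, so their D0 peaks and missing D8 peaks are a description and not a result.

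ATAC-seq marks open chromatin by the insertion of adapters with Tn5 transposase. The 4 libraries came from im-scWAT cells, stromal vascular cells of subcutaneous white adipose tissue from 5-week-old mice immortalised with the SV40 large T antigen. The WT cells were Jmjd1a +/+ and the HY cells Jmjd1a HY/HY, carrying on both alleles a tyrosine in place of a histidine that removes the catalytic activity of JMJD1A, a demethylase of histone H3 lysine 9. D0 cells were taken before differentiation. D8 cells had been confluent, had received indomethacin, dexamethasone, 3-isobutyl-1-methylxanthine, rosiglitazone, insulin and T3 for 2 days and then insulin, T3 and rosiglitazone for 6 days. There was 1 library per group, so every difference below compares these libraries and not the conditions, no test was made, and the 95% intervals cover counting over regions only. In a bulk culture, fewer cells with an open promoter and less opening per cell cannot be told apart.

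A promoter is the stretch of DNA where transcription of a gene starts, and it is nucleosome-depleted in most cells when it lies in a CpG island, a stretch rich in unmethylated CpG dinucleotides. Promoters poor in CpG tend to be open only in the cell types that use the gene. Preadipocytes that differentiate leave the cell cycle, reorganise their matrix and cytoskeleton and switch on the lipid storage programme, and factors of the AP-1, TEAD and RUNX families are known to act at open sites of mesenchymal progenitors.

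The labelled cell type was checked against marker promoters. All 5 preadipocyte markers (Pdgfra, Pdgfrb, Ly6a, Cd34 and Thy1) had an open promoter in both D0 lists and 3 in both D8 lists. Of 6 adipocyte markers, 2 (Pparg and Cebpa) were open at D0 and 5 at D8 in either genotype, and Ucp1 had a promoter peak in none of the 4 lists. No immune (0 of 4), skeletal muscle (0 of 3) or liver (0 of 2) marker promoter was open in any list. Of 4 endothelial markers Kdr and Tek, and of 2 neuronal genes Syt1, were open in both D0 lists. Pecam1 was open in WT D0 alone, Kdr also in HY D8, and Cdh5 and Snap25 in none of the 4 lists. The lists held 71523 (WT D0), 41228 (WT D8), 77994 (HY D0) and 48964 (HY D8) peaks. D8 depth was 0.806 of D0 depth in WT and 0.698 in HY, as read from the background rate of each list.

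Sequences of 11 closed promoters are shown because closed promoters differed in motif and CpG content from those that stayed open. Each is 200 bp of mm9 centred on the WT D0 summit, written 5′ to 3′ on the strand of the gene and overlapping no annotated exon. In the promoters of Gm11382 (chr13:33031178-33031377, minus strand), of the cell cycle factor Foxm1 (chr6:128314843-128315042, plus strand) and of the growth factor receptor Egfr (chr11:16804724-16804923, plus strand), capitals mark the AP-1 motif TGANTCA.
Gm11382: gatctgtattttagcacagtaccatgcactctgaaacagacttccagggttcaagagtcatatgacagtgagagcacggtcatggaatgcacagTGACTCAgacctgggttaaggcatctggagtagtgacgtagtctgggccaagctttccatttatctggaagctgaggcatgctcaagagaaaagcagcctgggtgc
Foxm1: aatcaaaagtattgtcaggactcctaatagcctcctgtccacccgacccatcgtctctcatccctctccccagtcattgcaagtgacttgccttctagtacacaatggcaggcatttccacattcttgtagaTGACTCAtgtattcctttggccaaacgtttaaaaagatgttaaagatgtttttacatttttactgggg
Egfr: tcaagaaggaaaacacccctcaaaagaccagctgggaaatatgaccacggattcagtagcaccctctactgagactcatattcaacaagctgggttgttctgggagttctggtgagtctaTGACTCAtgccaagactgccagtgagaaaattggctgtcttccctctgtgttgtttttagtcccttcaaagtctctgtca

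The AP-1 letters lay 2.5 bp from the summit in Gm11382, 23.5 bp in Egfr and 35.5 bp in Foxm1. The promoters of Ankrd1 (chr19:36194463-36194662, minus strand), a stretch-responsive gene and known target of YAP and TEAD, of Myl9 (chr2:156603150-156603349, plus strand), a regulatory light chain of contractile myosin, and of the alarmin Il33 (chr19:30020046-30020245, plus strand) each held 1 TEAD motif, GGAATG on either strand, in capitals.
Ankrd1: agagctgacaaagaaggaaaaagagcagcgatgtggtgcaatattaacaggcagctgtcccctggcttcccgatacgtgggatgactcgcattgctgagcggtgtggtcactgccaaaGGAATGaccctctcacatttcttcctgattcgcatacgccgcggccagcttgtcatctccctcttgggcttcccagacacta
Myl9: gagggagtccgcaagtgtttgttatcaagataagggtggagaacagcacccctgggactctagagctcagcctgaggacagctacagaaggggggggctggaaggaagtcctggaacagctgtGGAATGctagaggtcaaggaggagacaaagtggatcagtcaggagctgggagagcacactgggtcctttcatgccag
Il33: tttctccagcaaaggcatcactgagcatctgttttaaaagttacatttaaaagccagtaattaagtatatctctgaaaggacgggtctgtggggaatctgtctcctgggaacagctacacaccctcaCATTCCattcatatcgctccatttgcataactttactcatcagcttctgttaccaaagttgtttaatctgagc

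The remaining 5 show the range of CpG content, with every CpG in capitals. Six2 (chr17:86087650-86087849, minus strand), Hoxc9 (chr15:102806389-102806588, plus strand) and Wwc1 (chr11:35794101-35794300, minus strand) held 23, 14 and 11 CpGs. Gm15527 (chr6:54228571-54228770, minus strand), the closed promoter with the highest significance in its weaker D0 library, held 1, and Zfp423 (chr8:90328481-90328680, minus strand) held 3.
Six2: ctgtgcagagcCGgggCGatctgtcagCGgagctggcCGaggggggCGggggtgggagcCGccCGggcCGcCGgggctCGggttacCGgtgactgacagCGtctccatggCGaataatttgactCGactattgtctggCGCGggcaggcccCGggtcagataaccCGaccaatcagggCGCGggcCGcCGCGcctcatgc
Hoxc9: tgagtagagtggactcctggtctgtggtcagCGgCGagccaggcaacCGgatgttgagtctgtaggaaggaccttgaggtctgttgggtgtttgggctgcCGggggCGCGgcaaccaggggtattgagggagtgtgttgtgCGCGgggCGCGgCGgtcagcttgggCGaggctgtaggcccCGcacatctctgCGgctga
Wwc1: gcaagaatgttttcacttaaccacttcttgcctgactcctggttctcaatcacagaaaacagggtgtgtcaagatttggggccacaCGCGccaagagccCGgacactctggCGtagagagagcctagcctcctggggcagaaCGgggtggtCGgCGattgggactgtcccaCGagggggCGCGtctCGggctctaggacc
Gm15527: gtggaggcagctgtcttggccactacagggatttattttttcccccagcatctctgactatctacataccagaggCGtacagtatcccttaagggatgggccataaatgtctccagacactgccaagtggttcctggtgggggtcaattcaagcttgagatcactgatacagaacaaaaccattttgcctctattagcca
Zfp423: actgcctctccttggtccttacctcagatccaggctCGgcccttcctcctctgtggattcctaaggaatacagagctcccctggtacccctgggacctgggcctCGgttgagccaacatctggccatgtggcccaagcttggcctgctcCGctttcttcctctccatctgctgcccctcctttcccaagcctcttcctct

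Closure was less common at promoters than elsewhere. Of the 14044 promoter regions with a peak in both D0 lists, 1827 closed in both genotypes, 13% (exact 95% interval 12.5% to 13.6%), while 11162 kept a peak in both D8 lists. The number depends on the rule, with 663 closed (5.79%) when all lists were cut to equal length, 3151 (18.6%) with a wider promoter window and 5130 (36.5%) when a D8 peak had to cover 50% of the region. A further 303 kept one only in WT D8 and 752 only in HY D8, and 409 promoter regions opened, with a peak in both D8 lists and none at D0. Outside promoters, 22427 of 42581 regions closed, 52.7% (52.2% to 53.1%). Taken by genotype, 22.2% of the 14864 WT D0 promoter regions had no WT D8 peak, and 21.2% of the 15424 HY D0 promoter regions had no HY D8 peak. By chromosome the closed share ran from 9.50% on chromosome 16 to 15.5% on chromosome 14.

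The closed regions touched the promoters of 1808 genes, 13% of the 13937 genes with a promoter region open in both D0 lists. For 972 of them, 6.97% of those 13937 genes, no TSS window of the gene held a D8 peak of either genotype. Another 499 genes (27.6%) had a D8 peak of both genotypes at a TSS window that no closed region touched. Below, this is called another open promoter. Such a window can lie in the flank of the same promoter: the nearest D8 peak was 197 bp away at Wnt5a and 373 bp at Col1a1. How often all genes open at D0 had such a window was not counted. The 27.6% fell to 10.5% under the 50% overlap rule. In 223 genes a D8 peak of both genotypes lay only at a window that the closed region also touched. Protein-coding genes made up 1439 of the 1808 and closed in 11.8% of the 12198 open at D0, and long intergenic RNA genes closed in 12.2%. The shares were 24.1% for processed transcripts, 26.0% for miRNA genes and 34.6% for pseudogenes.

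Closed promoters were weak at D0. The summit pileup, the number of overlapping tags at the highest point of a peak, had a median of 13 in WT D0 (range 5 to 60) and 15 in HY D0 (5 to 77), against 36 and 42 for the promoters that kept their peaks. Median peak width was 198 bp in WT and 235 bp in HY, against 669 and 763 bp for kept promoters, and the median fold of the summit over local background was 5.43 and 5.82 against 10.6 and 11. The promoters open in only 1 D8 list lay between, with median pileups of 16 and 19. Both D8 libraries were shallower than the D0 libraries, and the part of depth in the loss of weak peaks was not tested.

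**Figure D1:**
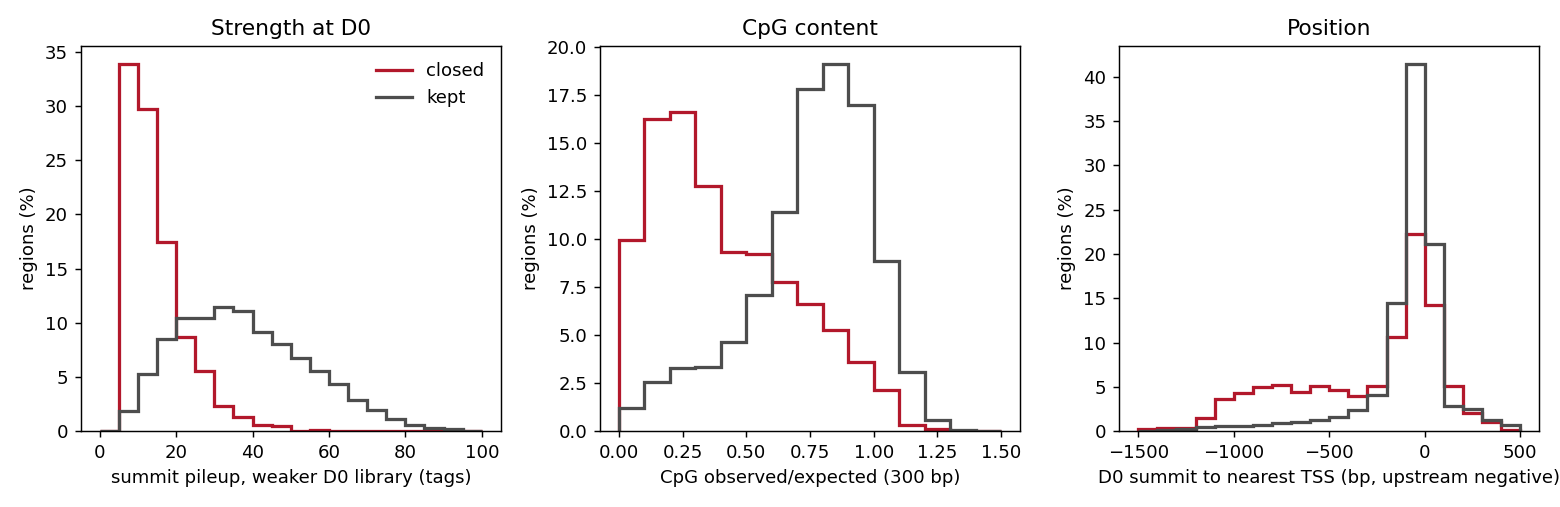
Closed (red) and kept (grey) promoter regions by summit pileup in the weaker D0 library, by CpG observed/expected in 300 bp around the D0 summit, and by distance of the summit to the nearest TSS, each as percent of regions per bin. Closed promoters sit at low pileup and low CpG content and extend further upstream than the kept ones.

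The closed share fell steadily with D0 strength. Among regions with a pileup under 10 in the weaker D0 library 61.7% closed, from 10 to 14 tags 37.2%, from 15 to 19 tags 21.4% and from 20 to 29 tags 9.24%. It was 2.52% from 30 to 39 tags and 0.603% from 40 to 59 tags, and none of the 1299 promoters with 60 or more tags in both libraries closed, which allows a share of up to 0.284% at the upper exact limit. At equal strength, regions outside promoters closed more often, 77.8%, 62.0%, 46.9% and 29.8% in the 4 weakest classes. Promoters closed less often than other sites in each of these classes.

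The members nearest the rule show how thin the edge is. The closed promoters with the lowest -log10 q in the weaker library were those of Impdh1 (pileup 7 in WT D0, 6 in HY D0), of Ndufaf4 (8 and 7) and of Grid2ip (6 and 7). Their values were 1.40, 1.32 and 1.31, where calling began at a q of 0.05. Just outside lay Clstn1, Pip5kl1 and Spr-ps1, each with a peak in HY D8 alone, of 4, 6 and 5 tags and a -log10 q of 1.31, 1.36 and 1.38. Pip5kl1 had been stronger at D0 than most members, with 22 tags in WT and 31 in HY.

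The lists hold no value below the calling limit, so the D8 level of a closed promoter is known only to lie under that limit. Scaled to the D8 depth of its own genotype, the D0 summit of 1667 closed promoters (91.2%, 89.9% to 92.5%) still passed the lowest -log10 p of the D8 list in both genotypes, 1730 in WT and 1748 in HY. Kept promoters passed in 99.6%. Members had passed a D0 limit of similar height by the rule, so a high share is largely fixed in advance. A scaled value also carries no counting noise, so the share does not test the part of depth in the loss. The scaled D0 pileup was a median 1.52 times the limit in WT and 1.63 times in HY, and at least 2 times the limit in both for 301 members (16.5%). Kept promoters had a D8 pileup of 0.968 times the depth-scaled D0 pileup in WT and 1.01 times in HY (medians). When every list was limited to peaks of -log10 q 5 or more, 1746 promoters closed and the share that still passed the then higher limit was 58.2%.

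D0 heights in WT and HY cells were compared among the members, which all had a peak in both D0 lists by the rule. After scaling for depth the median log2 ratio of HY to WT D0 pileup was 0.08 in the 1827 members, the 10th and 90th percentiles were -0.52 and 0.63, and 1762 members (96.4%) lay within 2-fold, against 99.4% of kept promoters. The summits of the 2 genotypes lay a median 30 bp apart (19 bp in kept promoters), and 64.6% were within 50 bp of each other. Across the members the log pileups of the 2 libraries had a Pearson correlation of 0.785 (0.928 in kept promoters), a description over 1827 regions that share the same underlying sequence and the same calling limit.

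Closed promoters lay further from the TSS. Their WT D0 summit was a median 180 bp from the nearest TSS, against 68 bp for kept promoters and 189 bp for the promoters that opened. Only 36.7% had the summit within 100 bp of a TSS (62.6% of kept promoters), and 30.3% had it more than 500 bp upstream (6.27%). The region touched the promoter of a single gene in 95.5% of members and in 81.6% of kept promoters.

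Closed promoters were also CpG-poor. In the 300 bp around the summit the median GC content was 53.7% and the median CpG observed/expected ratio 0.349 (95% interval of the median 0.330 to 0.368), against 64.0% and 0.794 for kept promoters. Only 439 members (24.0%, 22.1% to 26.1%) were CpG-rich, defined as at least 50% GC and a ratio of at least 0.6, against 76.4% of kept promoters. The promoters that opened were CpG-poor too (ratio 0.240, 15.2% CpG-rich, measured around the D8 summit), and the closed sites outside promoters lower still (0.194, 1.85%). Of all D0 promoter regions, 29.8% of the 4653 CpG-poor ones closed and 4.67% of the 9391 CpG-rich ones.

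The difference between the CpG classes was present within classes of D0 pileup. With 10 to 14 tags in the weaker D0 library, 52.3% of CpG-poor and 19.3% of CpG-rich promoters closed, with 15 to 19 tags 36.3% and 7.63%, and with 20 to 29 tags 21.9% and 2.93%. With 30 to 39 tags, 58 of 653 CpG-poor promoters closed (8.88%) and 9 of 2009 CpG-rich ones (0.448%), and with 40 to 59 tags 17 of 629 (2.70%) and 3 of 2690 (0.112%). The intervals of the CpG classes were apart in each class under 60 tags, and with 60 or more tags no promoter of either closed. Position changed it less: 34.3% of CpG-poor promoters with the summit over 100 bp from a TSS closed and 22.8% of those within 100 bp, against 5.87% and 4.09% of CpG-rich ones.

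**Figure D2:**
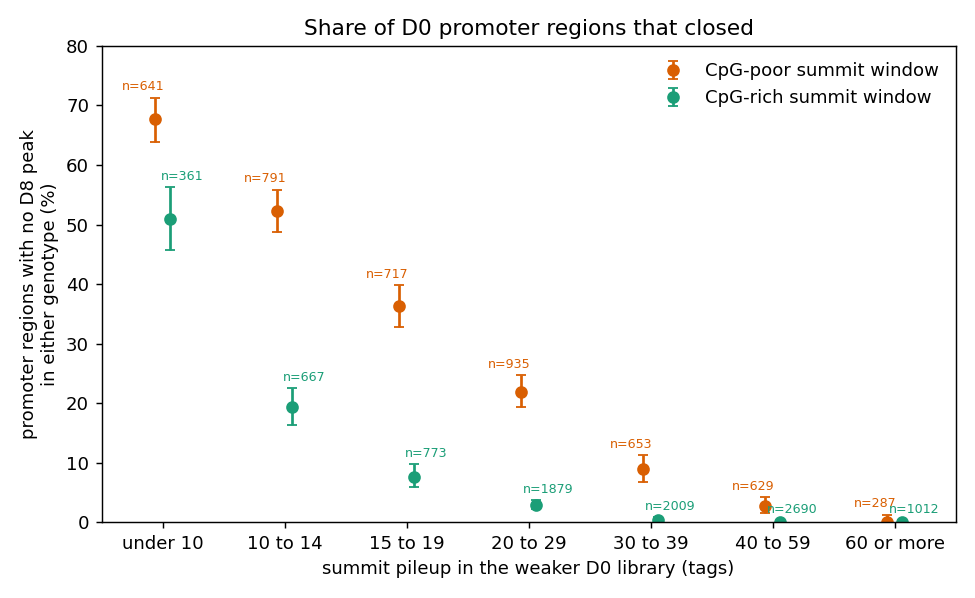
Share of promoter regions with a peak in both D0 lists that had no D8 peak in either genotype, by summit pileup in the weaker D0 library, for CpG-poor (orange) and CpG-rich (green) summit windows, with exact 95% intervals and the number of regions. Under 60 tags the CpG-poor share is the higher in every class, from 67.7% against 51.0% under 10 tags to 2.70% against 0.112% from 40 to 59.

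The motifs near the summits differed between closed and kept promoters. The AP-1 motif TGANTCA, the binding sequence of FOS and JUN dimers, stood within 100 bp of the summit in 343 closed promoters (18.8%, 17.0% to 20.6%), in 4.66% of kept promoters, in 4.16% of those that opened and in 4.19% of 200 bp windows at all annotated TSSs. The TEAD motif GGAATG was found in 15.9% of closed and 7.46% of kept promoters, and the RUNX motif TGTGGT in 16.9% and 7.51% (8.85% and 11% of all TSSs). Both strands were searched, and matches of different motifs may overlap. A match says only that the letters are present.

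Motifs of CpG-island promoters ran the other way. The SP/KLF motif GGGCGG stood in 25% of closed and 61.3% of kept promoters, the ETS motif CCGGAAG in 3.34% and 15.3%, the NFY motif CCAAT in 21.2% and 32.0%, and the NRF1 motif in 0.0547% and 1.51%. The CRE TGACGTCA was present in 0.930% and 3.03%. The TATA box letters TATAAA were in 5.69% and 2.60%, and the CTCF motif in 2.90% and 1.35%. At all annotated TSSs the shares were 30.3% for SP/KLF, 7.25% for ETS, 24.3% for NFY, 7.23% for the TATA box and 0.342% for CTCF. Closed promoters thus held TATA box letters less often than all TSSs. For SP/KLF and NFY the kept promoters lay further from the share of all TSSs than the closed ones. Among CpG-poor promoters the TATA box share was 6.84% (5.57% to 8.30%) in closed and 4.41% (3.66% to 5.27%) in kept ones, while the CTCF intervals overlapped, 3.46% (2.56% to 4.56%) and 3.20% (2.56% to 3.94%).

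Within CpG-poor promoters the AP-1 difference was smaller but remained beyond the counting intervals. AP-1 letters stood in 23.6% (21.4% to 26.0%) of the closed and 11.3% (10.1% to 12.5%) of the kept ones, TEAD letters in 18.9% and 12.1%, and RUNX letters in 20.2% and 12%. Among CpG-poor promoters with under 20 tags in the weaker library, AP-1 letters were in 23.8% of 1108 closed and 8.46% of 615 kept regions. The difference was present both for summits over 100 bp from a TSS (25.5% and 14.1%) and for those within 100 bp (19.2% and 7.73%). In CpG-rich promoters AP-1 letters were rare in both groups, 3.42% (1.92% to 5.57%) of closed and 2.63% of kept ones. Closed sites outside promoters held AP-1 letters more often than closed promoters, in 32.5%.

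**Figure D3:**
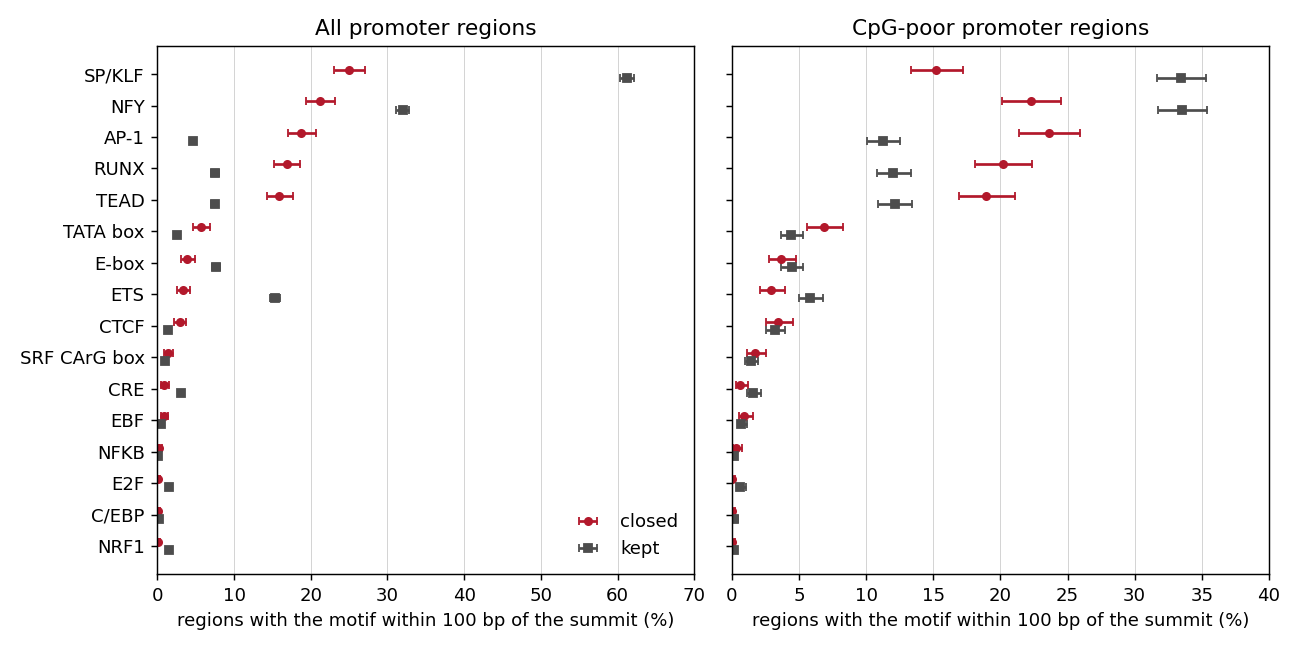
Percent of closed (red circles) and kept (grey squares) promoter regions with each of 16 motifs within 100 bp of the WT D0 summit, for all regions (left) and CpG-poor regions (right), with exact 95% intervals. AP-1, RUNX and TEAD letters are more frequent in closed promoters, SP/KLF, NFY and ETS letters in kept ones, in both panels.

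The 12 closed promoters with the highest significance in their weaker D0 library belonged to 8 coding genes and to 4 non-coding genes or pseudogenes. Gm15527, a non-coding transcript, led with a pileup of 52 in WT D0 and 49 in HY D0 at chr6:54228444-54229253. Its scaled heights of 41.9 and 34.2 tags stood against D8 limits of 10 and 7, and the nearest D8 peak was 47996 bp away. Trafd1, a zinc finger regulator of innate immune signalling, had 58 and 45 tags at a summit 780 bp upstream of its TSS (chr5:121823423-121824090). Gm11382, a pseudogene, had 36 and 34 tags, and the protease inhibitor gene Serpinb6b, next to it on chromosome 13, had 35 and 37. All 4 stood several-fold above the D8 limit in both genotypes.

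Of the remaining 8, SNORA9, a small nucleolar RNA, had 43 and 29 tags, with the summit 1265 bp upstream and only the region's edge inside the window. A330021E22Rik had 33 and 44 tags, Aknad1 43 and 42, and 1700019G24Rik 25 and 27. Ptn, which encodes the secreted heparin-binding growth factor pleiotrophin, had 33 and 51 tags with the summit 3 bp from its TSS. Pdlim2, which encodes a PDZ and LIM domain protein of the actin cytoskeleton, had 49 and 77, the phosphatase gene Dusp14 38 and 51, and Ccdc21 44 and 44. None of the 12 was CpG-rich. AP-1 letters were present in Gm11382, A330021E22Rik, Pdlim2, Dusp14 and Ccdc21. Trafd1, Pdlim2, Dusp14 and Ccdc21 had another promoter open in both D8 lists, and A330021E22Rik one open in HY D8 alone.

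**Figure D4:**
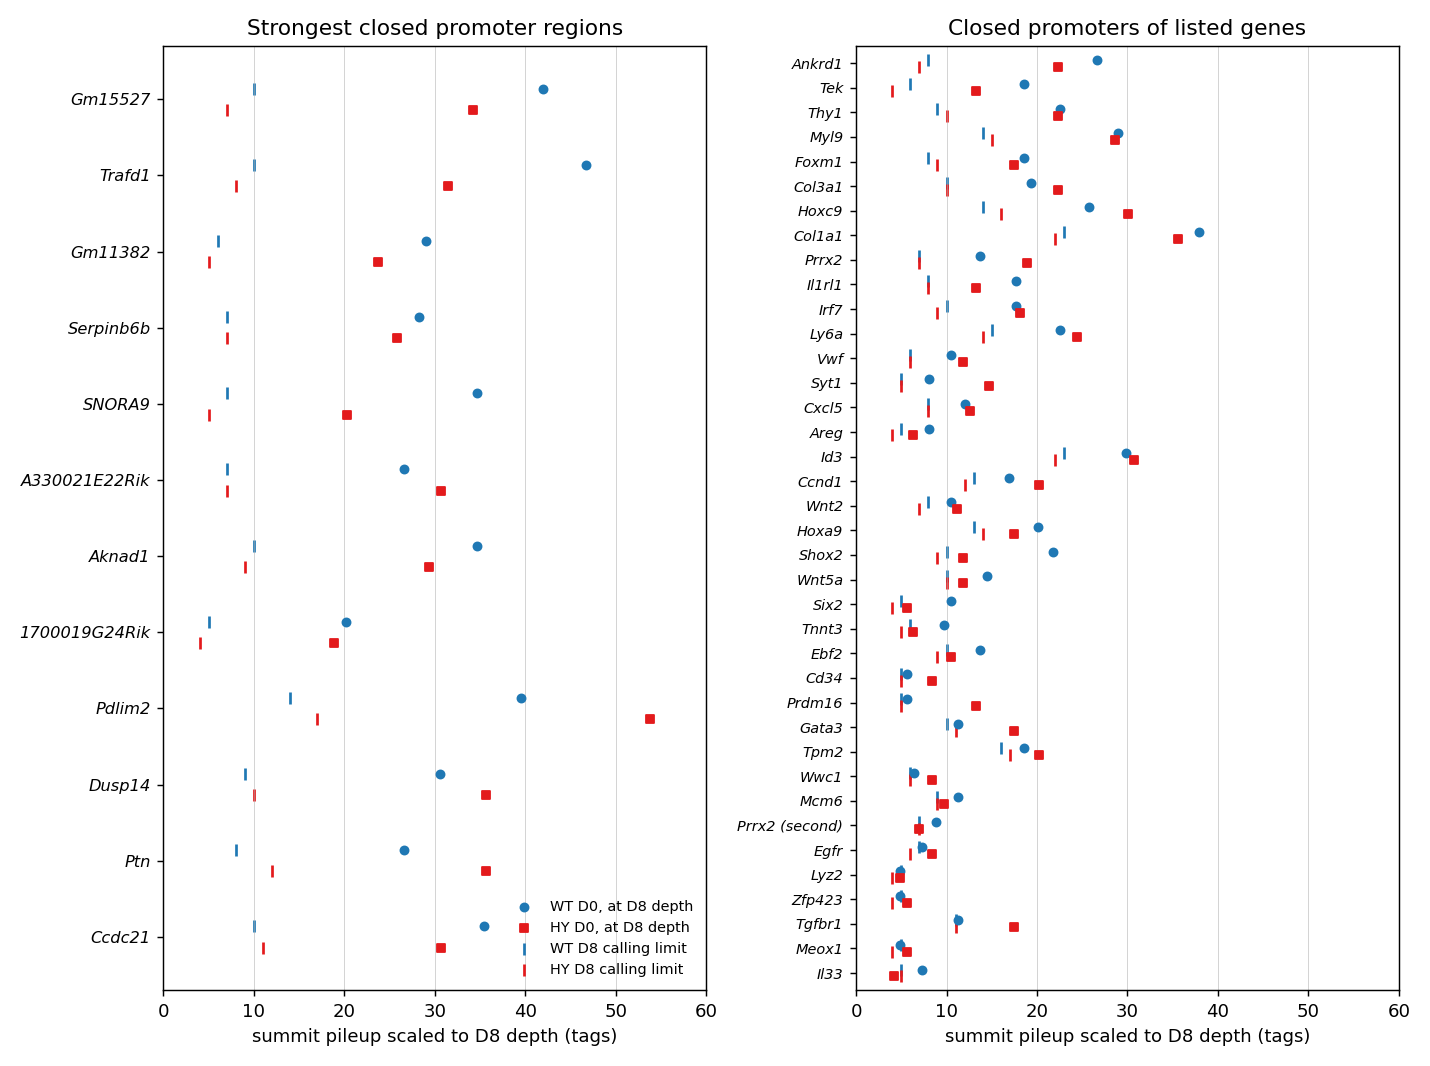
D0 summit pileup in tags, scaled to the D8 depth of its genotype, in WT (blue circles) and HY (red squares) of the 12 most significant closed promoter regions (left) and of the closed promoters of listed genes (right), 1 library each, with the pileup needed for a D8 call at the region's background (ticks). The 12 sit above the ticks in both genotypes, whereas Il33, Meox1, Zfp423, Lyz2 and the second region of Prrx2 lie under a tick in 1 genotype.

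Genes of 16 lists were looked up next, 320 genes in all. Tags are given as measured at D0 in WT and HY, and where a D8 limit is named they are followed by their values scaled to D8 depth. Of the 38 closed regions of listed genes, 33 passed the D8 limit in both genotypes after scaling. Those of Il33, Meox1, Zfp423 and Lyz2 and a second region of Prrx2 lay under it in 1 genotype. Each list's count is read beside the 13% of all genes open at D0. Progenitor markers closed in 5 of 14 genes open at D0 (35.7%), a count that fell to 2 with lists of equal length, where matrix and contractile genes had 4 and developmental factors 3. Thy1, a surface glycoprotein of stromal cells, had 28 tags in WT and 32 in HY, which scaled to 22.6 and 22.3 against D8 limits of 9 and 10. The secreted ligand Wnt2 had 13 and 16 tags in a CpG-rich promoter (ratio 0.863), and the nearest D8 peak was 244600 bp away. Cd34, a progenitor sialomucin, had 7 and 12 tags, which scaled to 5.64 and 8.38 against limits of 5 and 5. For these 3 genes no TSS window held a D8 peak.

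Ly6a, which encodes the progenitor antigen Sca-1, had 28 and 35 tags in its closed region, 460 bp upstream of the TSS, but a neighbouring region in the same window kept its peak in both genotypes. Zfp423, a regulator of preadipocyte commitment, had 6 and 8 tags and another promoter open at D8, and its WT height scaled to 4.83, under the limit of 5. The loss at Ly6a and Zfp423 was thus of a single site, not of all promoter peaks of the gene.

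Adipogenesis inhibitors closed in 3 of 18 genes open at D0 (16.7%), near the 13% of all genes, and all 3 retained a D8 peak at a TSS window. The count was 0 with lists of equal length, 1 with the 500 bp allowance or with coding TSSs, 5 with the wider window and 10 under the 50% overlap rule. Id3, an inhibitor of basic helix-loop-helix factors, had 37 and 44 tags in the closed region, which scaled to 29.8 and 30.7 against limits of 23 and 22. Wnt5a, a ligand that antagonises adipogenesis, had 18 and 17, and Gata3, a factor that represses Pparg, had 14 and 25. The nearest D8 peak was 197 bp away at Wnt5a, 395 bp at Gata3 and 573 bp at Id3.

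Developmental transcription factors closed in 6 of 19 (31.6%), with 3 for lists of equal length and 13 under the 50% overlap rule. Hoxc9, which specifies trunk position, had 32 and 43 tags, which scaled to 25.8 and 30 against limits of 14 and 16, with no D8 peak at its TSS window and the nearest 1020 bp away. Six2 had 13 and 8 tags and the nearest D8 peak 91776 bp away, and Meox1 had 6 and 8, its WT height scaling to 4.83, under the limit of 5. Prrx2, a limb mesenchyme factor, lost 2 regions, of 17 and 27 tags and of 11 and 10 tags, the latter scaling to 6.98 in HY, under the limit of 7. Shox2 lost a region of 27 and 17 tags and Hoxa9 one of 25 and 25. Prrx2, Shox2 and Hoxa9 had another promoter open in both D8 lists.

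Matrix and contractile genes closed in 4 of 20 (20%), beside 13% of all genes, with 2 for coding TSSs, 9 for the wider window and 15 under the 50% overlap rule. Col3a1, which encodes the chain of type III collagen, had 24 and 32 tags 121 bp downstream of its TSS, which scaled to 19.3 and 22.3 against limits of 10 and 10, and no TSS window of it held a D8 peak. Col1a1 had the tallest closed peak among listed genes, 47 and 51 tags, with a D8 peak 373 bp away and another promoter window open. Myl9 had 36 and 41, and the actin-binding tropomyosin gene Tpm2 23 and 29, both upstream sites of genes that kept another promoter peak. The 2 closed YAP/TEAD targets of 16, Ankrd1 (33 and 32 tags, scaled 26.6 and 22.3, limits 8 and 7) and the Hippo regulator Wwc1 (8 and 12 tags, scaled 6.45 and 8.38, limits of 6), had no D8 peak at any TSS window. The YAP/TEAD share (12.5%) was near the 13% of all genes, and the count was 1 with peaks of −log10 q 5 or more or with lists of equal length, 4 with the wider window and 7 under the 50% overlap rule.

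Cell cycle genes closed in 3 of 26 (11.5%), near the 13% of all genes open at D0, and in 1 to 9 over the alternatives. Foxm1 lost the upstream AP-1-bearing site shown above (23 and 25 tags) and kept another promoter, as did the helicase gene Mcm6 (14 and 14). Ccnd1, which encodes cyclin D1, had 21 and 29 tags at its TSS, which scaled to 16.9 and 20.2 against limits of 13 and 12, and the nearest D8 peak lay 1675 bp away, outside the window. Growth factor and Wnt genes closed in 3 of 22 (13.6%), also near the share of all genes, and in 1 to 12 over the alternatives. They were the EGF family ligand Areg (10 and 9 tags, nearest D8 peak 64741 bp), its receptor Egfr (9 and 12) and the receptor kinase Tgfbr1 (14 and 25), and only Areg had no D8 peak at any TSS window.

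Inflammatory and interferon genes closed in 4 of 24 (16.7%), near the 13% of all genes, and in 9 under the 50% overlap rule. The interleukin 33 receptor gene Il1rl1 had 22 and 19 tags, its ligand Il33 9 and 6, the interferon regulatory factor Irf7 22 and 26 and the chemokine gene Cxcl5 15 and 18. The HY height of Il33 scaled to 4.19 tags, under its limit of 5. Il1rl1, Irf7 and Cxcl5 kept a D8 peak at a TSS window, that of Il1rl1 in HY alone, whereas Il33 had none. None of the 16 AP-1 and immediate early genes open at D0 closed under this rule, although 4 did when a D8 peak had to cover 50% of the region and 2 with the wider promoter window.

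No adipocyte gene closed (0 of 14 open at D0), and 11 of the 22 genes of that list had a promoter region that opened. Of all 17174 promoter regions 409 opened, a count of regions and not of genes. Of the thermogenic and mitochondrial genes, 2 of 13 closed (15.4%), near the 13% of all genes. Both calls were lost with a −log10 q of at least 5 or with lists of equal length (0 closed in each). Ebf2, a selector factor of thermogenic adipocytes, had 17 and 15 tags at its TSS and a D8 peak 923 bp away. Prdm16, a determinant of brown and beige fate, had 7 and 19 tags at 1 of its promoters and, at other TSS windows of the gene, a WT D8 peak (chr4:154010871-154010960) and a separate HY D8 peak (chr4:154011186-154011291). Genes of other cell types were few among those open at D0: the endothelial Tek (23 and 19 tags, scaled 18.5 and 13.3, limits 6 and 4) and Vwf (13 and 17) of 6, the synaptic Syt1 (10 and 21) of 4, the muscle gene Tnnt3 (12 and 9) of 2, and the lysozyme gene Lyz2 (6 and 7, the WT height scaling to 4.83, under the limit of 5), the 1 gene of the immune list that was open at D0. The closed share was 33.3% in the endothelial, 25% in the neuronal and 50% in the muscle list, and the 1 liver gene open at D0 did not close. Beside these, the 35.7% of progenitor markers and 31.6% of developmental factors were not particular to those lists. With the stricter peaks the closed endothelial genes numbered 5 and the neuronal ones 3, and under the 50% overlap rule 6 and 4, while coding TSSs left 1 endothelial gene. The immune and muscle counts were 0 with those peaks and with lists of equal length, and the muscle count 2 under the 50% overlap rule.

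**Figure D5:**
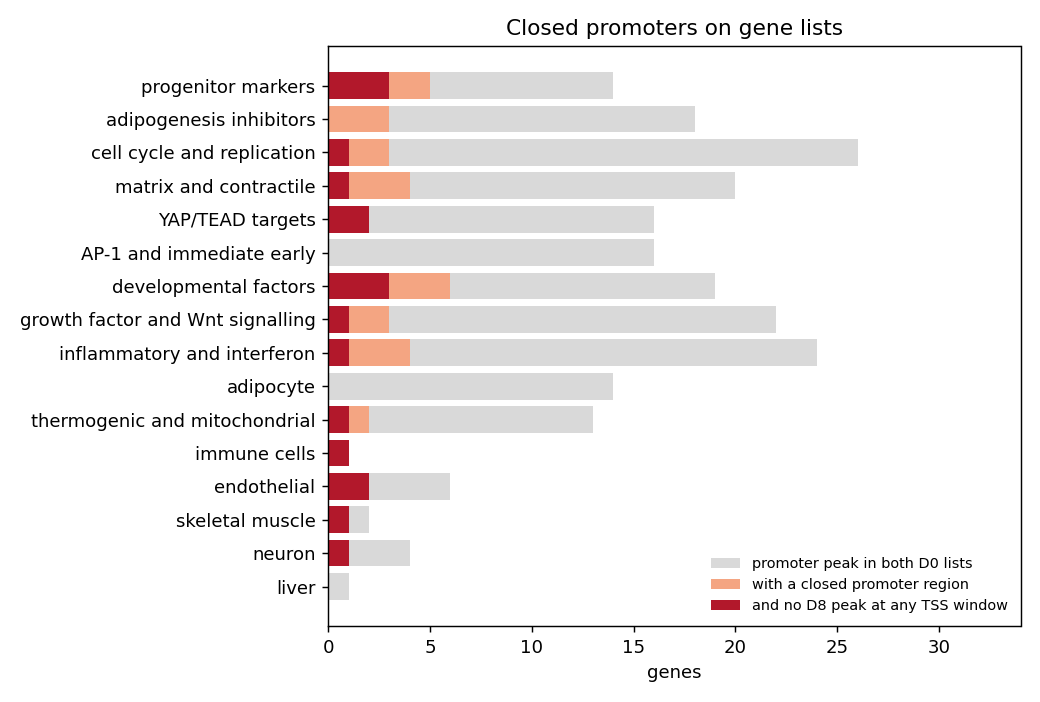
Number of genes per list with a promoter peak in both D0 lists (grey), with a closed promoter region (light red) and with a closed region and no D8 peak at any TSS window (dark red). Progenitor markers and developmental factors have the most closed genes, 5 and 6, and the adipocyte and the AP-1 and immediate early lists have none.

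Closure often concerned part of a promoter neighbourhood. The nearest D8 peak of either genotype lay a median 5208 bp from a closed promoter, within 500 bp for 364 members (19.9%) and within 50 kb for 1626 (89.0%). The 965 members whose genes had no D8 peak at any TSS window (52.8%) had their summit a median 118 bp from the TSS, were CpG-rich in 32.3%, and lay a median 12675 bp from the nearest D8 peak. The other 862 had medians of 372 bp and 764.5 bp and were CpG-rich in 14.7%. The distances to the nearest D8 peak follow largely from this split by D8 peaks and are not a result. AP-1 letters were equally frequent, 18.5% (16.1% to 21.1%) and 19% (16.5% to 21.8%). Non-promoter D0 sites within 50 kb closed in 47.9% around closed promoters and in 47.0% around kept ones.

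Most closed promoters were isolated, and 1188 (65.0%) had no other within 100 kb. The group with the most members was an array of 5S ribosomal RNA genes on chromosome 8 (chr8:126066113-126139186) with 13 closed regions of 19 to 37 tags in WT and 19 to 42 in HY, while 10 regions of the span were kept. These genes are near-identical copies, so their reads cannot be placed with certainty. Next came chr17:35016503-35291319, with 7 closed regions from Zbtb12 to Prrc2a, among them the heat shock gene Hspa1b (37 tags in each D0 library), and 14 kept ones. Spans of 6 closed regions followed. The one at chr17:34342926-34536157 held no kept region, and the promoters of the MHC class II genes H2-Ab1 (9 and 8 tags), H2-Aa (6 and 7, the WT height scaling to 4.83, under the limit of 5) and H2-Eb1 (11 and 10), which present antigen, were among its closed ones. The span from Hras1 to Cd151 on chromosome 7 held 6 closed and 15 kept regions, with Irf7 among the closed.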

How the data were processed

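ATAC-seq peak lists of 4 libraries (WT and HY im-scWAT cells, D0 and D8, 1 per group) were analysed. The study describes adapter trimming, filtering, alignment, duplicate removal and peak calling, and the submitters' processing notes name Bowtie2, SAMtools, Picard, deepTools and mm9; caller settings and the Tn5 shift are not given in the sources used here. The authors deposited, per peak, a fold ratio of summit pileup over local background, −log10 p and −log10 q. The score column deposited by the authors was not used. Pileup and background were solved from the fold and −log10 p (tolerance 0.002, 100% of peaks solved, against 0.774% to 1.36% with the p column shuffled); the lowest background gave relative depth. Absolute read numbers are unknown.

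Lists were merged with BEDTools 2.31.1 (1 bp overlap) and matched to GENCODE TSSs on NCBIM37 (mm9), using Python 3.11.15, pandas 2.3.3, scipy 1.17.1 and pysam 0.24.0. The D8 limit is the pileup reaching the lowest −log10 p of the D8 list at the depth-scaled D0 background. Motif consensus letters were matched within 100 bp, and CpG content measured over 300 bp, around the WT D0 summit. Intervals are exact binomial or order-statistic 95% intervals. The steps were tested on simulated data.

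The members, the gene lists and the motifs were chosen with earlier results of these data known. Named were the 12 members with the highest −log10 q in the weaker D0 library, up to 4 closed genes per list by the same measure (Zfp423, Six2 and Meox1, the other closed genes of their lists, were added after their values were seen), the 3 nearest the rule on each side, and the 3 groups with most closed regions within 100 kb (spans tied at 6 regions by number of genes, which left a tie of 2). Alternatives were stricter peaks, lists of equal length, other overlap rules, other promoter windows, coding TSSs only, and other sequence windows.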

Additional observations from a re-analysis of the deposited data

How the results depend on the processing

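The number of closed promoter regions ranged from 663 to 5130 over the alternatives. With a −log10 q of at least 5 in every list, the closed share was 13.7%, the median D0 pileup 17 in WT and 19 in HY, the share still past the D8 limit after scaling 58.2%, the median CpG ratio 0.396 and the genes with another promoter open at D8 24.1%. With all lists cut to the 41228 strongest peaks, 663 regions closed (5.79%), with pileups of 19 and 22, 100% past the limit, a CpG ratio of 0.324, AP-1 letters in 22.8% and 24.9% of genes with another open promoter. When a D8 peak had to cover 50% of the D0 region, 5130 closed (36.5%), with pileups of 21 and 24, 96.2% past the limit, a ratio of 0.590, AP-1 letters in 11.8% and 10.5% of genes with another open promoter. When a D8 peak within 500 bp also counted, the share was 10.4%, the HY pileup 14 and the ratio 0.329. A window of 2000 bp upstream to 1000 bp downstream gave 3151 regions (18.6%) and a ratio of 0.307. TSSs of protein-coding transcripts gave 9.93%, a ratio of 0.423, AP-1 letters in 14.9% and 22.7% of genes with another open promoter. Within 50 bp of the summit AP-1 letters stood in 12.7% of closed promoters. The causes of these shifts were not tested.

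Of the 50 named regions, 33 closed under the stricter peaks, 26 with lists of equal length, 45 with the 500 bp allowance and 35 with coding TSSs. The counts of closed genes per list stayed within 1.5 times in 56 of 96 cases. The adipocyte list had 0 closed genes except under the 50% overlap rule (1), the AP-1 and immediate early list 4 under that rule and 2 with the wider window, and the thermogenic and mitochondrial list 0 with the stricter peaks and with lists of equal length. No paired test was run. Each genotype gives 1 pair of D0 and D8 libraries, and the rule asks for the loss in both pairs.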

Other observations

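Gene families read from their symbols, chosen after the values were seen, differed in how many members lost all promoter peaks. No TSS window with a D8 peak was left for 0 of 78 cytosolic ribosomal protein genes open at D0, 0 of 76 mitochondrial ribosomal protein genes and 0 of 34 complex I subunit genes, beside 6.97% of all genes open at D0. The proteasome family lost 1 of 37, the immunoproteasome subunit gene Psmb10 (25 tags in WT D0, 20 in HY D0). Zinc finger genes lost 13 of 288 and solute carriers 11 of 195.

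Beside the same 6.97% of all genes, orphan G protein-coupled receptors lost 10 of 35, potassium channels 6 of 30, and integrins 4 of 19, among them the collagen-binding Itga2 (13 tags in WT D0, 20 in HY D0). Collagens lost 5 of 24, among them Col14a1 (18 and 25 tags), interleukins and their receptors 5 of 27, among them the receptor antagonist Il1rn (11 and 7 tags), semaphorins and plexins 4 of 21, and Hox genes 3 of 19. Cadherins and protocadherins lost 2 of 13, the TNF ligand and receptor superfamily 3 of 17 and the histocompatibility 2 genes 3 of 16. Small families lost 2 of 5 keratins, 2 of 7 claudins, 2 of 7 troponins and tropomyosins and 1 of 5 clade B serpins. Chemokines lost 1 of 11 and myosins 1 of 23, and RNA polymerase II subunits (0 of 12) and the Ly6 family (0 of 4) none. These are counts of families selected for description, with no test.

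On chromosome X, left out of the merged set by the rule, 57 of 425 promoter regions open in both D0 lists closed (13.4%, exact 95% interval 10.3% to 17.0%).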
